A study of Mus musculus with 5 samples.

Results

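The renin-angiotensin system genes described here are 9 genes of 24563 on the array: Ren1, Agt, Ace, Agtr1a, Agtr1b, Agtr2, Mas1, Enpep and Atp6ap2. They were chosen by gene symbol, and all 9 had a row in the authors' gene table and together 10 probes in the scanner data, with 2 probes for Mas1 and 1 for each other gene. The samples were 5 tissues of C57BL/6 mice, each hybridised to its own one-colour array, and each made up a group alone. The groups were kidney from E13.5 embryos, kidney from P0 mice, kidney from 8-week-old adults, and tissue recovered 2 weeks or 4 weeks after a kidney bud was transplanted. The study set development-related expression of the transplants beside that of the kidney. Which cells made up the bud, the transplantation site, the host and any pooling of animals are not stated in the labels.

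Without replicates no difference could be tested, and a difference of 2-fold or more is used here only as a rule of size. The number of arrays limits the precision. Beside each intensity stands the scanner software's own error estimate for that spot, which covers neither labelling nor animals. Slide 1 carried the 2-week transplant with the E13.5 kidney, and slide 2 the P0 kidney, the 8-week kidney and the 4-week transplant, so slide and group cannot be told apart in comparisons across slides. Depth in the sense of signal over background was similar, with 60.9% to 69.1% of gene spots well above background. Sex also differed: signal of Ddx3y (Y-linked) failed to clear background at P0, as did that of Xist in the 8-week kidney, and both genes were detected on the other 3 arrays. In bulk tissue, fewer cells of a type and less RNA per cell cannot be told apart.

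Renin, a protease released by the juxtaglomerular cells of the afferent arteriole, cuts angiotensinogen to angiotensin I. Angiotensin-converting enzyme then makes angiotensin II, which acts through the AT1 and AT2 receptors on vessel tone, salt handling and the growing kidney. Loss of renin, angiotensinogen, the converting enzyme or both AT1 receptors in mice is known to leave the renal papilla and vessels malformed.

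The starts of 3 of these genes are shown because their products make angiotensin I and II, and because Ace has a pair of starts that an array probe need not tell apart. Each sequence is the 250 bases upstream of a RefSeq gene start on GRCm38.p6, 5′ to 3′ on the gene's strand, with matches to any searched motif in capitals. Both strands were searched for the TATA box as TATAAA, and for the CCAAT box by those letters. The GC box was searched as GGGCGG, the cAMP response element as TGACGTCA, and the half-site of HNF1, a factor of kidney tubules, as GTTAAT. Ren1 lies at chr1:133350424-133350673 (plus strand), Agt at chr8:124569707-124569956 (minus strand), and the Ace starts at chr11:105967698-105967947 and chr11:105974939-105975188 (both plus strand). The upstream Ace start is that of the somatic enzyme, and an internal start in the gene is known for the form of male germ cells.
Ren1: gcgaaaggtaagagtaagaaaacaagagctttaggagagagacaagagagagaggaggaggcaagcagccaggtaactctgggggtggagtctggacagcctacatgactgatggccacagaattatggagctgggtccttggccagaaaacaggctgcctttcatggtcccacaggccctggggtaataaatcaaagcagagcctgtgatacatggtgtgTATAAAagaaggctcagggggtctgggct
Agt: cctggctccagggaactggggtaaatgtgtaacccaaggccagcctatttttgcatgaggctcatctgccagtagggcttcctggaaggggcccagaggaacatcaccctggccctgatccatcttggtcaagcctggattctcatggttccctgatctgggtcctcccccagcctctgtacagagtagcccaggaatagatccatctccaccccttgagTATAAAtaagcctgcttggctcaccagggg
Ace, upstream start: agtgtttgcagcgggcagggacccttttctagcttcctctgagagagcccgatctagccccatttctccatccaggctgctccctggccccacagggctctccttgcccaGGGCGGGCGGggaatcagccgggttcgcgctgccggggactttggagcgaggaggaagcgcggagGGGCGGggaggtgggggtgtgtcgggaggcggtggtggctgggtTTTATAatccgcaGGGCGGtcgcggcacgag
Ace, internal start: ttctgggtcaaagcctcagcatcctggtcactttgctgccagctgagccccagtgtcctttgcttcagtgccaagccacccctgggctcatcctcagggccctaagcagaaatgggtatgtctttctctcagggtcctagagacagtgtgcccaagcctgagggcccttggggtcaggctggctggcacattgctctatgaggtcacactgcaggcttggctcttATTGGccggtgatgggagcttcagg
A TATAAA match began 29 bases before the Ren1 start, 30 before Agt, 31 before the upstream Ace start (minus strand) and 31 before Agtr1b. The upstream Ace start also held 4 GGGCGG matches, of which those at 140 and 136 bases overlap, and the internal start held CCAAT on the minus strand 25 bases before it and no TATAAA. Enpep had a TATAAA match 52 bases and a CCAAT match 77 bases before its start, both on the minus strand. Atp6ap2, expressed in most tissues, held 3 CCAAT and 2 GGGCGG matches and no TATAAA, where 1 CCAAT overlaps a GGGCGG. Agtr2 and Mas1 held 1 CCAAT match each and Agtr1b 1, and the table has no entry for Agtr1a. No member held TGACGTCA or GTTAAT. Among 32851 RefSeq starts, 12.4% held TATAAA, 33.8% CCAAT, 32.7% GGGCGG, 1.55% TGACGTCA and 6.43% GTTAAT in the same window. A match is a string of letters and not a shown binding site.

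Values below are spot intensities in scanner units with the spot error, and levels are log2 of the intensity over the array's 75th percentile. Intensities are not scaled between arrays, and folds follow the levels. All 6 members well above background on all 5 arrays (Ren1, Agt, Ace, Agtr1a, Enpep and Atp6ap2) were lowest in the E13.5 kidney, against 24.2% of the 14234 genes detected on all arrays. Their median range over the 5 arrays was 4.68 log2 units, against 1.56 for those 14234 genes. The remaining 3 were dim on at least 1 array: Agtr1b in the E13.5 and 8-week kidney, Mas1 in the E13.5 and P0 kidney, and Agtr2 in the 8-week kidney. A dim value below the lowest detected value of its array gives only a bound, written as "at least". The dim spots of Agtr2 and of the brighter Mas1 probe lay above that value and entered as measured.

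**Figure D1:**
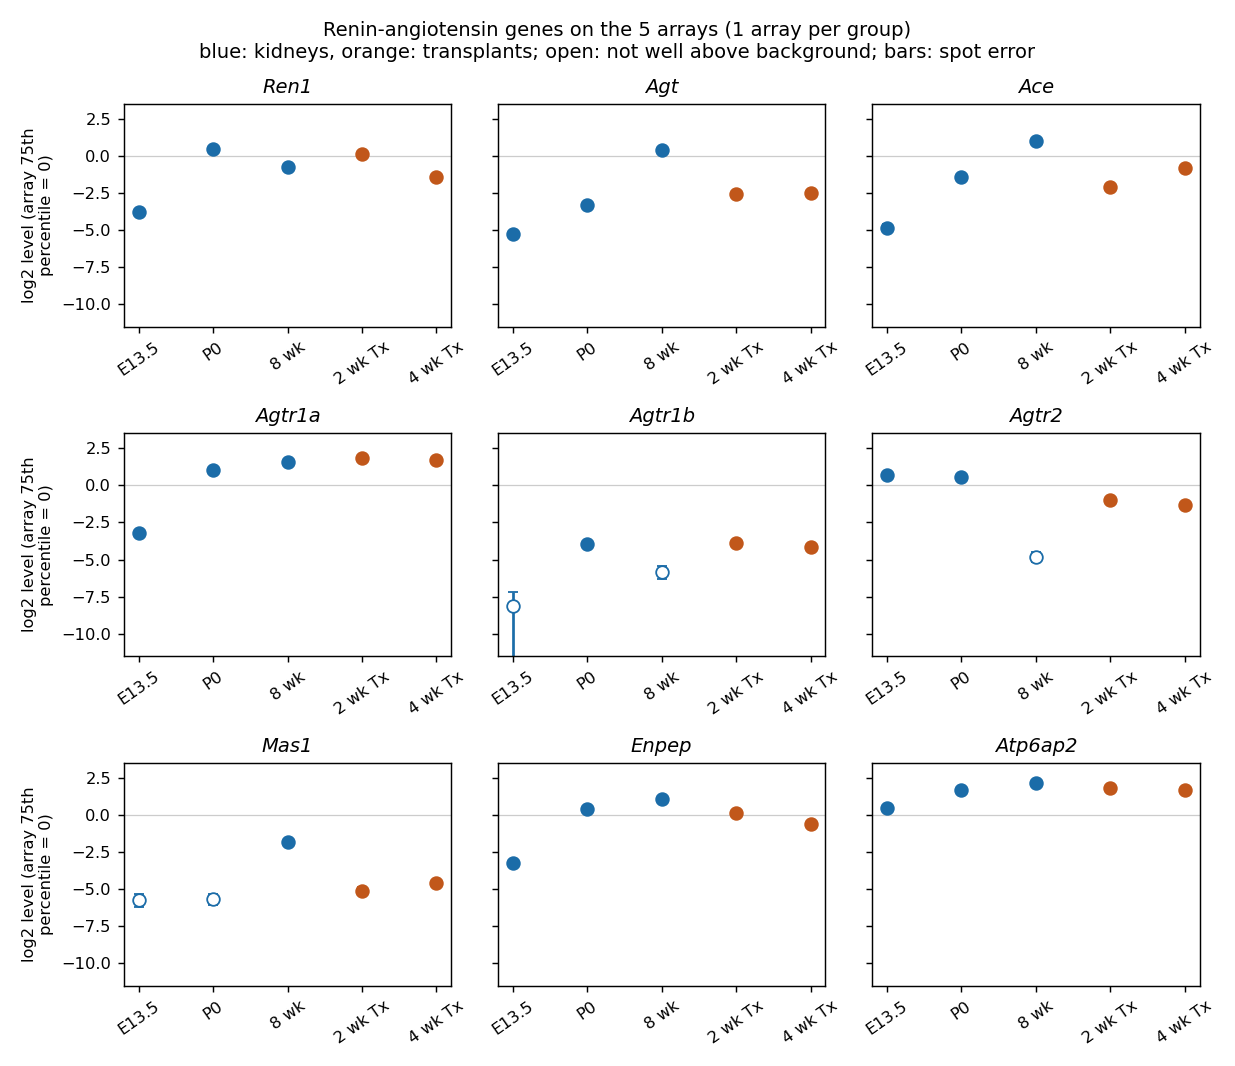
Log2 level of each of the 9 genes on each of the 5 arrays (blue kidneys, orange transplants), with the array's 75th percentile at 0, the spot error as bars and open circles where the spot was not well above background. Ren1 was highest at P0 (0.48), Agt, Ace and Mas1 in the 8-week kidney, and Agtr2 in the E13.5 (0.72) and P0 kidney (0.58). The lower bar of Agtr1b at E13.5 runs off the panel.

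Renin (Ren1, gene 19701) had an intensity of 117 ± 13.8 in the E13.5 kidney, 2393 ± 239 at P0 and 697 ± 70.1 at 8 weeks. It was 1852 ± 185 in the 2-week transplant and 563 ± 56.6 in the 4-week transplant. The P0 kidney and the 2-week transplant were thus the high arrays, 0.36 log2 units apart with a combined spot error of 0.20. The 8-week kidney and the 4-week transplant lay lower, at levels of -0.75 and -1.42, and the E13.5 kidney lowest at -3.79. Set against E13.5, Ren1 was 19.2-fold higher at P0, 8.24-fold higher at 8 weeks, 15-fold higher in the 2-week and 5.17-fold higher in the 4-week transplant. Ren1 in the 4-week transplant was 3.72-fold below P0, 2.89-fold below the 2-week transplant and 1.59-fold below the 8-week kidney.

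A probe labelled Ren2 (gene 19702) also gave signal on every array. Ren2 is a near-identical copy of the renin gene found in some mouse strains, whereas C57BL/6 mice are known to carry only Ren1, so which transcript this probe reads is uncertain. Its intensities were 931 ± 93.3 (E13.5), 41045 ± 4105 (P0), 20312 ± 2031 (8 weeks), 31010 ± 3101 (2-week transplant) and 13755 ± 1376 (4-week transplant). The order of the 5 arrays was the same on both probes, but the sizes differed. On the Ren2 probe the P0 kidney was 41.5-fold above E13.5, and the 8-week kidney 1.37-fold below P0 where the Ren1 probe gave 2.34-fold. The 4-week transplant was 1.98-fold below the 2-week transplant on it, just short of 2-fold. The calls of a lower renin level at 8 weeks than at P0, and at 4 than at 2 weeks of transplantation, therefore hold on 1 of the 2 probes. That against P0 holds on both, at 3.72-fold and 2.61-fold.

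**Figure D2:**
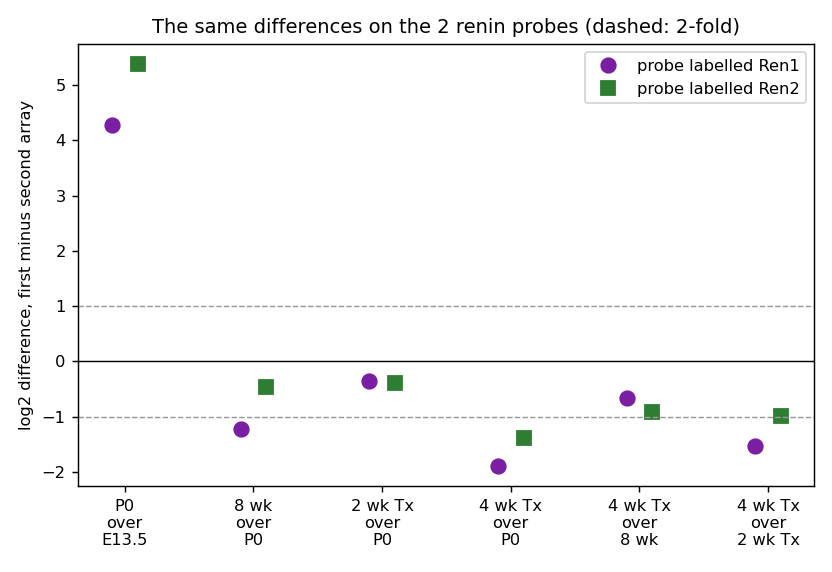
Log2 differences between pairs of arrays on the probe labelled Ren1 (circles) and the probe labelled Ren2 (squares), with dashed lines at 2-fold. The P0 over E13.5 difference was 4.27 on the first and 5.38 on the second, and the 8-week over P0 difference was -1.22 and -0.46.

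Of 11 genes of renin cells and renin release, 7 were at least 2-fold higher and 0 lower in the 4-week transplant than at P0, against 19.2% and 13.9% of all genes measured. The median difference was 1.80, against -0.02 over all genes. Ren1 itself was lower there. Akr1b7, an aldo-keto reductase that renin cells express and the adrenal cortex expresses strongly, had intensities of 1091 (E13.5), 2317 (P0), 238 (8 weeks), 1213 (2-week transplant) and 36711 (4-week transplant). All 8 adrenal cortex markers were well above background in the 4-week transplant and 3 to 5 of 8 on the other arrays, with a summed level of 207 against 0.306 to 0.591. Cyp11a1, Cyp11b1 and Cyp11b2 were not well above background on any array but this one. Pde3b, of the same list and also expressed by fat, had levels of -0.14 at P0 and 2.14 in the 4-week transplant. The part of adrenal cells in the Ren1, Agtr1b and Akr1b7 values, and of fat in those of Pde3b, was not tested.

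Other genes of the renin list followed courses unlike that of Ren1. Gja5, the connexin that couples renin cells, was lowest in the 8-week kidney (level -3.46) and 6.92-fold higher in the 4-week transplant. Foxd1, the regulator that marks the stroma from which renin cells descend, was 10420 at E13.5, 1283 at P0, 38.0 at 8 weeks, 3621 at 2 and 809 at 4 weeks of transplantation. Its partner in mural cell development, Tbx18, was 932 at E13.5, not well above background at P0 or 8 weeks, and 884 and 197 in the 2-week and 4-week transplants. Adrb1, the adrenergic receptor that drives renin release, was not well above background at E13.5 and 57.9, 110, 125 and 222 on the others. Nos1, which marks the macula densa, was highest in the 8-week kidney (level -3.67) and 2.33-fold lower in the 4-week transplant. Smooth muscle and pericyte markers, the cells nearest to renin cells, summed to 6.77 (E13.5), 57.5 (P0), 6.06 (8 weeks), 78.9 and 65.3 (2-week and 4-week transplant). Acta2 and Tagln carry most of this sum at P0 and in the transplants. By count, 5 of 8 were higher by 2-fold or more and 1 lower at P0 over E13.5, against 13.9% and 11.9% of all genes. At 8 weeks, 0 were higher and 7 lower than at P0, against 23.6% and 21%. In the 4-week transplant, 2 were higher and 0 lower than at P0, against 19.2% and 13.9%, so the higher count was near the share of all genes. Ren1 was lower there. The part of mural cells in the Ren1 values was not tested.

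Angiotensinogen (Agt, gene 11606), the only known precursor of the angiotensins, had intensities of 41.9 ± 7.33 (E13.5), 172 ± 18 (P0), 1536 ± 154 (8 weeks), 285 ± 29 (2-week transplant) and 260 ± 26.5 (4-week transplant). The 8-week kidney stood alone above the rest, and the transplants were close to each other, 0.06 log2 units apart with a combined spot error of 0.21. Agt at 8 weeks was 13.2-fold above P0 and 50.8-fold above E13.5. In the 4-week transplant it was 7.59-fold below the 8-week kidney of the same slide and 1.74-fold above P0. Fat cells, astrocytes and the liver are known to make Agt as well. Adipocyte markers were well above background for 8 of 8 genes in both transplants and 3 or 4 of 8 in the kidneys, with summed levels of 197 and 495 against 1.91 (E13.5), 33.3 (P0) and 4.73 (8 weeks). Adipoq and Cfd were not well above background in any kidney. The brown fat marker Ucp1 was 31394 and 39814 in the 2-week and 4-week transplant. The astrocyte marker Gfap was 7104 and 331 there and not well above background in any kidney. Of 6 hepatocyte markers, 3 were well above background in the 2-week and 2 in the 4-week transplant. Albumin (Alb), Apoa1 and Apob were not in either. Ttr was 350239 at 4 weeks and carried nearly all of the list's summed level of 234 there. The part of fat and glia in the Agt values was not tested.

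The converting enzyme (Ace, gene 11421), which the proximal tubule brush border and the endothelium express, had intensities of 55.7 ± 10 (E13.5), 640 ± 64.4 (P0), 2367 ± 237 (8 weeks), 397 ± 40.2 (2-week transplant) and 830 ± 83.2 (4-week transplant). The 3 kidneys were ordered by age, and both transplants lay between the E13.5 and the 8-week kidney. It was 10.8-fold higher at P0 than at E13.5 and 5.43-fold higher at 8 weeks than at P0. The first difference, 3.44 log2 units, turned to -0.39 with a normexp background correction. That correction put the background at -992 on the E13.5 array and at 20.7 to 27.5 on the others. The negative control spots of the E13.5 array gave 44.0, so the turned value rests on an outlying estimate. The 4-week transplant was 3.67-fold below the 8-week kidney and 2.38-fold above the 2-week transplant, a call that the same correction brought to 0.98 log2 units, just under 2-fold. The probe does not say from which start a transcript came. Endothelial markers summed to 22.8, 46.3, 27.8, 51.6 and 37.4 in the order E13.5, P0, 8 weeks, 2-week and 4-week transplant, with 8 of 8 detected on every array. The proximal tubule markers summed to 0.414, 117, 1396, 12.4 and 5.37. In the 4-week over the 2-week transplant, 0 of 8 endothelial markers were at least 2-fold higher and 0 lower, and 0 of 10 proximal tubule markers higher and 6 lower, against 9.10% and 5.68% of all genes. The part of these cells in the Ace values was not tested.

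The AT1a receptor (Agtr1a, gene 11607), the main angiotensin II receptor of the mouse kidney, was 177 ± 19.2 at E13.5, 3579 ± 358 at P0 and 3425 ± 343 at 8 weeks. It was 6090 ± 609 in the 2-week and 4931 ± 493 in the 4-week transplant. All 4 later arrays lay within 0.77 log2 units, and they were 19.1-fold (P0) to 32.6-fold (2-week transplant) above E13.5. The levels of the transplants (1.83 and 1.71) were the highest, but the gaps between neighbours from the 8-week kidney upwards (0.16 and 0.12) were below the combined spot error of 0.20.

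The AT1b receptor (Agtr1b, gene 11608), in rodents the form of the adrenal gland and pituitary, was dim. Its intensity was 112 ± 12.4 at P0, 115 ± 12.5 in the 2-week and 86.1 ± 9.9 in the 4-week transplant, 3 values whose neighbours lay 0.05 and 0.18 log2 units apart, within a combined spot error of 0.22 and 0.23. In the E13.5 (5.66) and 8-week kidney (20.4) it was not well above background. It was at least 3.87-fold higher at P0 than at E13.5 and at least 2.71-fold higher than at 8 weeks. In the 4-week transplant, with its adrenal cortex markers, Agtr1b was 1.17-fold below the 2-week transplant.

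The AT2 receptor (Agtr2, gene 11609), which is abundant in fetal mesenchyme, was highest in the E13.5 kidney, where each of the 6 members detected on all arrays was lowest. Its intensity was 2676 ± 268 at E13.5 and 2575 ± 258 at P0, then 42 ± 9.71 and not well above background at 8 weeks. It was 867 ± 86.9 in the 2-week and 599 ± 60.4 in the 4-week transplant. The E13.5 and P0 kidneys differed by 0.14 log2 units, below the combined spot error of 0.20. The 8-week kidney was 41.7-fold below P0, with its dim spot (42 ± 9.71) taken as measured. Both transplants were in between: 3.27-fold (2 weeks) and 4.14-fold (4 weeks) below E13.5, and 14.1-fold and 11.1-fold above that 8-week value. Renal stroma markers summed to 39.8 (E13.5), 21.7 (P0), 2.10 (8 weeks), 77.5 and 55.4 (2-week and 4-week transplant), with Smoc2 carrying most of the transplants' sums. By count, 0 of 6 were at least 2-fold higher and 5 lower at 8 weeks than at P0 (median -3.85), against 23.6% and 21% of all genes. In the 4-week transplant, 1 was higher and 2 lower than at E13.5, a pair for which no share of all genes was counted. The median there was -0.27, against -0.02 over all genes. In the 2-week transplant over E13.5, 3 were higher and 2 lower, against 21.4% and 20.3% of all genes, with a median of 1.02. Meis1 had levels of 4.06 at E13.5, 1.97 in the 2-week and 1.84 in the 4-week transplant. Those of Foxd1 were 2.69, 1.08 and -0.89. These 2 were lower in both transplants, as Agtr2 was, while Pdgfra, Smoc2 and Dkk2 were higher in both. The part of stroma cells in the Agtr2 values was not tested. Agtr2 and Atp6ap2 are X-linked, and Xist had an intensity of 6.59 in the 8-week kidney and 205 to 973 on the other arrays.

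Mas1 (gene 17171), a receptor for a shortened angiotensin, had 2 probes. On the brighter one the intensity was 31.1 ± 8.92 (E13.5) and 33.9 ± 8.4 (P0), neither well above background, 328 ± 33.9 (8 weeks), 49.5 ± 8.68 (2-week transplant) and 63.4 ± 9.33 (4-week transplant). The dimmer probe gave 16.9, 26.3, 169, 34.5 and 88.3, also dim at E13.5 and P0 only. Both placed the 8-week kidney highest. On the brighter probe, Mas1 at 8 weeks was 14.2-fold above its dim P0 spot as measured. It was 6.65-fold lower in the 4-week transplant than at 8 weeks. On the dimmer probe this last gap was smaller, with levels of -2.80 at 8 weeks and -4.09 in the 4-week transplant. The probes differed in size for the transplants, with levels of -5.11 and -4.57 (2 and 4 weeks) on the brighter probe and -5.64 and -4.09 on the dimmer one.

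Aminopeptidase A (Enpep, gene 13809), which trims angiotensin II in the brush border and on podocytes, was 169 ± 18.1 (E13.5), 2258 ± 226 (P0), 2456 ± 246 (8 weeks), 1867 ± 187 (2-week transplant) and 978 ± 97.9 (4-week transplant). E13.5 was the low array, and the 2-week transplant came within 0.27 log2 units of P0 with a combined spot error of 0.20. The 4-week transplant was 2.02-fold below P0 and 3.23-fold below the 8-week kidney. Proximal tubule markers differed far more between these arrays: 9 of 10 were at least 2-fold lower in the 4-week transplant than at P0, against 13.9% of all genes and with a median of -4.12, where Enpep differed by -1.01. The 5 podocyte markers summed to 22.2 (E13.5), 19.7 (P0), 3.05 (8 weeks), 14.8 (2-week transplant) and 8.26 (4-week transplant), but Wt1, which nephron progenitors also express, carries most of the E13.5 and P0 sums. From E13.5 to P0, 4 of these were higher by 2-fold or more and 0 lower, against 13.9% and 11.9% of all genes. At 8 weeks over P0, 4 of 5 were within 2-fold (median 0.10), with 0 higher and 1 lower, against 23.6% and 21%. Against P0, 3 were higher and 1 lower in the 4-week transplant, where the shares of all genes were 19.2% and 13.9%. The part of either cell type in the Enpep values was not tested.

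The prorenin receptor (Atp6ap2, gene 70495), better known as an accessory subunit of the vacuolar proton pump, varied least of the members. Its intensity was 2282 ± 228 (E13.5), 5604 ± 560 (P0), 5224 ± 522 (8 weeks), 5950 ± 595 (2-week transplant) and 4684 ± 468 (4-week transplant). By level it was lowest at E13.5 (0.49) and highest at 8 weeks (2.16), a range of 3.17-fold. The 4-week transplant, the P0 kidney and the 2-week transplant were 0.06 and 0.09 log2 units apart, below the combined spot error of 0.20. Of 6 proton pump partners, 5 were at least 2-fold higher at 8 weeks than at P0, against 23.6% of all genes. Their median difference was 1.38, against 0.07 over all genes, and that of Atp6ap2 was 0.45. Among them, Atp6v1a was 12345 at P0 and 29726 at 8 weeks, and 8366 and 7736 in the transplants.

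Counted over the list, 7 of 8 measured members were at least 2-fold higher at P0 than at E13.5 and 0 lower, against 13.9% higher and 11.9% lower among 17572 genes. The median difference was 2.69, against -0.12 over all genes. With a normexp background correction, whose background estimate on the E13.5 array was -992, Agt and Ace turned to -1.63 and -0.39 in this comparison. With the negative control spots as background they were 1.03 and 2.46. From P0 to 8 weeks the list split, with Agt, Ace and Mas1 higher (3 of 9, against 23.6% of 17658 genes) and Ren1, Agtr1b and Agtr2 lower (3 of 9, against 21%).

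In the 2-week transplant, 7 of 9 were higher and 1, Agtr2, lower than in the E13.5 kidney of the same slide, against 21.4% and 20.3% of 18264 genes, with a median of 2.69 against -0.11 over all genes. With the normexp correction named above, Agt (-1.07) and Ace (-0.98) turned here too. Measured against P0, on the other slide, 8 of 9 were within 2-fold. The exception was Agtr2, 2.96-fold lower, so 0 were higher and 1 lower, against 15.4% and 11.8% of 18322 genes. The medians were 0.05 for the members and -0.07 for all genes. In the 4-week transplant, 1 was higher than at P0 (Mas1, 2.14-fold above its dim P0 spot) and 3 lower (Agtr2, Ren1 and Enpep). The shares of 18445 genes were 19.2% and 13.9%. Mas1 was under 2-fold there with both background corrections (0.68 and 0.80), quantile normalization (0.64) and median scaling (0.79). Both sets of differences share the P0 array.

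Against the 8-week kidney, the 4-week transplant had 2 members higher and 4 lower, Agt, Mas1, Ace and Enpep. The higher ones were Agtr2 (11.1-fold above a dim spot) and Agtr1b (at least 2.38-fold, or 1.25 log2 units). The shares over 18309 genes were 22.3% and 18.6%. Agtr1b was under 2-fold there with both background corrections (0.56 and 0.82) and median scaling (0.84). Each of these 4 was highest in the 8-week kidney among the 5 arrays. Between the transplants, 1 member was higher at 4 weeks (Ace) and 1 lower (Ren1), against 9.10% and 5.68% of 18493 genes, and 7 were within 2-fold. These arrays lay on different slides.

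**Figure D3:**
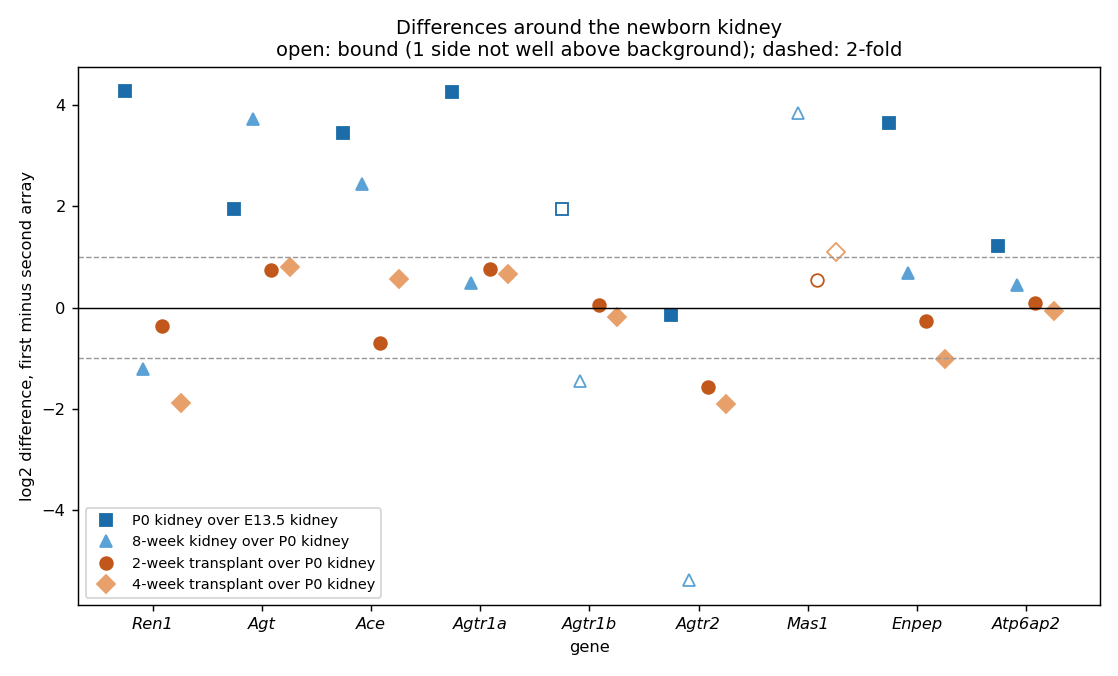
Log2 differences of the P0 kidney over E13.5 (squares), and of the 8-week kidney (triangles), the 2-week transplant (circles) and the 4-week transplant (diamonds) over the P0 kidney. Open symbols mark pairs with a spot that was not well above background, and dashed lines mark 2-fold. The 2-week transplant lay within the lines for all genes but Agtr2 (-1.57), whereas the 8-week kidney lay at 3.72 for Agt and at -5.38 for Agtr2.

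Tubule and podocyte markers were also read on every array. Podocyte markers were detected for 5 of 5 genes on each, so their detection does not tell the arrays apart. Proximal tubule markers were detected for 6 of 10 genes at E13.5 and 10 of 10 on the other arrays, and in the transplants their sums (12.4 and 5.37) lay between those at E13.5 (0.414) and at P0 (117). Macrophage markers, detected for 6 of 6 genes throughout, summed to 62.5 and 39.1 in the transplants and 3.76 to 14.2 in the kidneys.

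**Figure D4:**
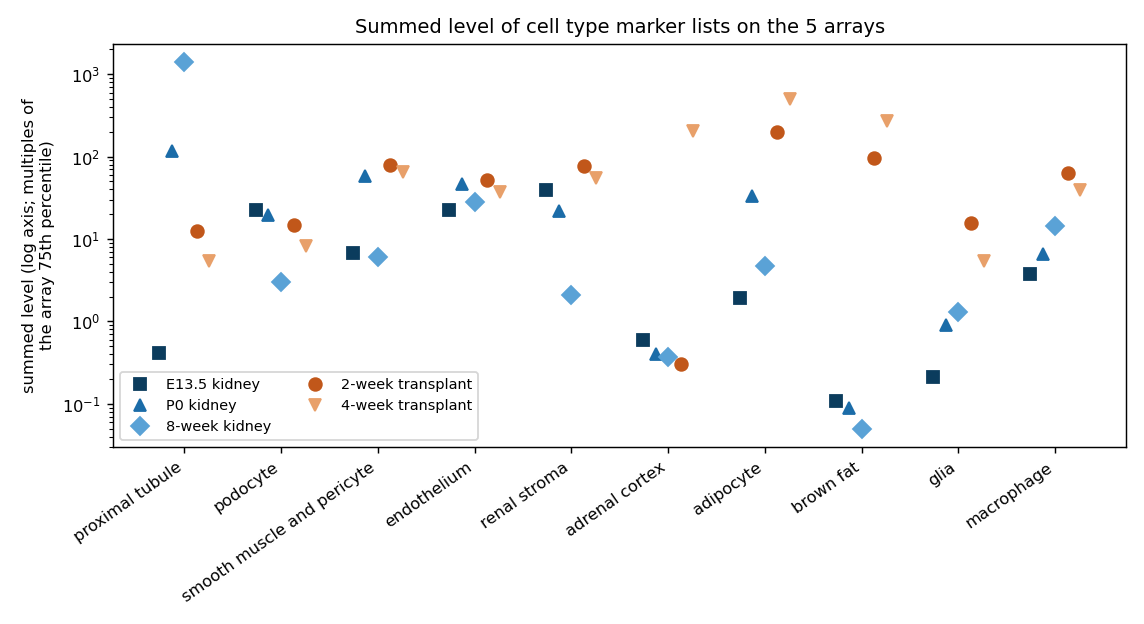
Summed level of 10 cell type marker lists on the 5 arrays, in multiples of the array's 75th percentile on a log axis, with a symbol for each array. The adrenal cortex sum was 207 in the 4-week transplant and below 1 elsewhere, and the adipocyte sum was 197 and 495 in the transplants and 1.91 to 33.3 in the kidneys.

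Among the peptidases that make or degrade angiotensins, 3 of 16 measured were at least 2-fold lower and 2 higher in the 4-week transplant than in the 8-week kidney, against 18.6% and 22.3% of all genes. Their median was 0.04, against 0.00 over all genes, so the lower share was close to that of all genes. Anpep, the aminopeptidase of the brush border that degrades angiotensin III, had intensities of 4740 (E13.5), 26642 (P0), 33888 (8 weeks), 16546 (2-week transplant) and 10573 (4-week transplant), highest in the 8-week kidney. Tissue kallikrein (Klk1), a distal tubule protease, was not well above background at E13.5, 1194 at P0, 132627 at 8 weeks, and 19638 and 5514 in the 2-week and 4-week transplants. Both transplants were thus above P0, by 16.5-fold and 5.28-fold, and below the 8-week kidney. The lysosomal cathepsins Ctsb and Ctsd, which can activate prorenin in vitro, were highest in the transplants (99395 and 71308 at 2 weeks), as were the macrophage markers. Their part in these values was not tested.

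The aldosterone arm had 6 members measured in the comparison of P0 with E13.5, of which 4 were at least 2-fold higher and 0 lower, against 13.9% and 11.9% of all genes, with a median of 3.28 against -0.12. The epithelial sodium channel subunits Scnn1a, Scnn1b and Scnn1g were lower at 4 weeks of transplantation than at P0, by 1.27, 1.46 and 1.82 log2 units. Sgk1, of the same list, had levels of 3.30 at P0 and 3.09 in the 4-week transplant. Aldosterone synthase (Cyp11b2) was 94.8 in the 4-week transplant and not well above background elsewhere. Its neighbour Cyp11b1, of the glucocorticoid-making zone, was 48389 there. Of the receptor partners, Agtrap, which binds the AT1 receptor and lowers its surface level, was 481, 1385, 5282, 883 and 1177, highest in the 8-week kidney. Rgs2, which dampens AT1 signalling, was 5190, 7234, 3201, 14440 and 41821, highest in the 4-week transplant.

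**Figure D5:**
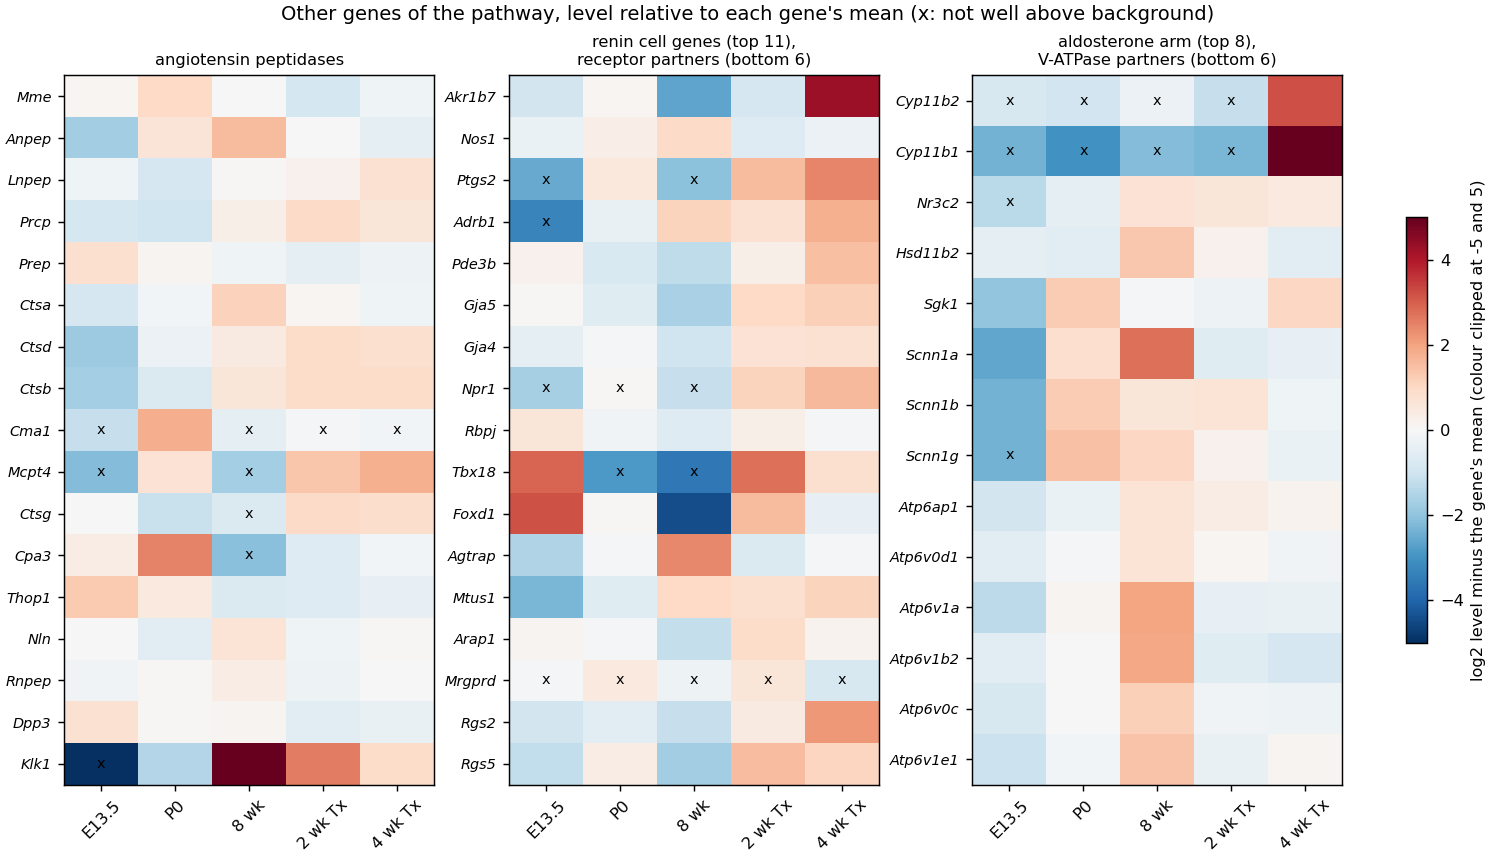
Levels of 48 other genes of the pathway on the 5 arrays, coloured by log2 level minus the gene's own mean, with an x where a spot was not well above background. Klk1 and Agtrap were highest in the 8-week kidney, and Akr1b7, Cyp11b1 and Cyp11b2 in the 4-week transplant.

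Genes with the closest patterns were sought for the 5 members detected on all arrays with a range of at least 2 log2 units, by the root mean square difference of the 5 levels after centring each gene, over 12883 others. The nearest to Ren1 were Scnn1b (0.33 log2 units), Dpp4 (0.34) and Tmem171 (0.35), against a median of 1.67. Agt was nearest to Pyroxd2 (0.20), Glb1l (0.24) and Tmem176a (0.25). Ace lay nearest to Fn3k (0.22), Entpd5 (0.24) and Acss1 (0.26). Agtr1a was closest to Cryab (0.26), Tspan8 (0.31) and Ifi203 (0.36). Enpep was closest to Cdh16 (0.22), a cadherin of the kidney tubule, Serpina1e (0.25) and Trim47 (0.25). With 5 arrays such likeness is a description.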

How the data were processed

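RNA from 5 samples was labelled with Cy3 by a low-input kit and hybridised to Agilent mouse arrays, per the labels' protocols. Per the file headers, Agilent Feature Extraction 10.7.3.1 subtracted background from the intensity of every spot and removed its spatial trend, and the deposited columns add an error estimate and flags (above background, saturated, outlier). The authors' table gives log2 values by gene under a title that speaks of a 75th percentile shift. Over its 30224 rows, 99.5% of values were within 0.01 of the unshifted log2 intensity (mean intensity of a gene's probes, each row centred on its median), and 18.2% with a shift, so the table carries no such shift. Its column medians were 0.05 (E13.5), 0.00 (P0, 8 weeks and 2-week transplant) and -0.08 (4-week transplant). The log base follows from this match.

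Levels were log2 intensity minus the array's log2 75th percentile over 43020 gene spots (1170.2 to 1720.1). Spots with an outlier flag on any array were dropped, and 0 were saturated. Of 39414 probes, 31781 were named through gene identifiers and RefSeq (GRCm38.p6), 2026 by the authors' symbol, 19 by accession, and 5588 stayed unnamed. The probe with the highest mean stood for a gene. For a dim array, the lowest detected value of that array was used unless the gene's own was higher, and genes dim on both arrays were left out. Repeated spots of a probe had median SDs of 0.04 to 0.09 log2 units above an intensity of 64 and 0.22 to 0.29 below. Members and lists were chosen with earlier results of these data known. Named were all members, any gene of the lists, and the 3 genes nearest to a member. Of the lists as first drawn up, 2 genes were left out of counts and figures and are not reported here. Python 3.11.15 and limma 3.58.1 were used, and the counting was tested on simulated data. Alternatives were 2 background corrections, 2 scalings, the authors' table, the mean over probes, 2 filters and a 4-fold threshold. Use of the Ren2 probe was added after seeing the data. Slide could not be fitted with 1 array per group.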

Additional observations from a re-analysis of the deposited data

How the results depend on the processing

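Over 7 comparisons, 34 differences of members were at least 2-fold, and all kept their direction with background from the negative controls (30 still 2-fold), quantile normalization (33), median scaling (31), the authors' table (34), the mean over probes (34) and no filter (34). Requiring detection on both arrays left 26, all still 2-fold. With the normexp correction, which estimated the mean background at -992 for E13.5 and at 20.7 to 27.5 for the other arrays, 28 kept their direction, 2 were at 0, and Agt and Ace turned at P0 over E13.5 (-1.63 and -0.39) and in the 2-week transplant over E13.5 (-1.07 and -0.98). With it, and with the share of all genes under it in parentheses, 4 members were higher (6.59%) and 1 lower (33.7%) at P0 over E13.5, and 4 higher (9.73%) and 2 lower (35.9%) in the 2-week transplant over E13.5. In the 4-week transplant, 0 were higher over P0 (14.1%), 1 over the 8-week kidney (16.2%) and 0 over the 2-week transplant (5.73%).

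In the 4-week transplant over P0, 0 were higher with negative controls, quantile normalization, median scaling or detection on both arrays. Over the 8-week kidney, 1 was higher with negative controls or median scaling and 0 with detection on both arrays, which drops the dim members by construction. Detection on both arrays also left 1 lower at 8 weeks over P0. That filter dropped Mas1 from those higher there, and Agtr1b from those higher than E13.5 at P0 and in the 2-week transplant. The mean over probes gave 2 higher in the 4-week over the 2-week transplant (Mas1 at 1.05), and the Ren2 probe 0 lower. At 4-fold, with the share of all genes in parentheses, 4 were higher at P0 over E13.5 (6.24%) and 1 was lower at 8 weeks over P0 (9.35%). In the 2-week transplant, 0 were lower over E13.5 (5.42%) or over P0 (3.38%). Atp6ap2 (1.30 log2 units) also fell below 4-fold in the 2-week transplant over E13.5, where Agtr1b stood at a bound of 2.00. In the 4-week transplant, 0 were higher (8.66%) and 0 lower (4.36%) than at P0, 1 higher (11.7%) and 2 lower (7.80%) than at 8 weeks, and 0 higher (2.44%) and 0 lower (1.02%) than at 2 weeks of transplantation. No member count at 8 weeks over P0 or in the 4-week transplant over 8 weeks changed with the authors' table, although over all genes its split was 14.4% higher and 35.3% lower (main 23.6% and 21%) and 31.8% and 13.6% (main 22.3% and 18.6%), with the median of all genes at -0.46 and 0.36 (main 0.07 and 0.00). Median scaling gave 17.1% and 29.3% for the 4-week transplant over 8 weeks. In every setting that gave levels, 8 of 9 members ranged over at least 4-fold. No paired analysis was possible because each group has 1 array. Signal over background limits Agtr1b and Mas1 most. The causes were not tested.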

Other observations

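Besides the converting enzyme, mast cell chymase can make angiotensin II. Cma1 (chymase) was well above background in the P0 kidney only, at 98.3. The related Mcpt4 was 52.1 at P0, 82.6 in the 2-week and 94.5 in the 4-week transplant, and not well above background at E13.5 or 8 weeks. Carboxypeptidase A (Cpa3), of the same granules, was 277 at P0, 61.0 at E13.5, 31.8 and 39.6 in the transplants and not well above background at 8 weeks. Cathepsin G (Ctsg), which neutrophils also carry, was 160 and 133 in the transplants. Of the 6 mast cell markers, 0 were at least 2-fold higher and 2 lower in the 2-week transplant than at P0, against 15.4% and 11.8% of all genes.

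Ptgs2, the cyclooxygenase of the macula densa, was 56.4 at P0, 118 in the 2-week and 186 in the 4-week transplant and not well above background at E13.5 or 8 weeks. The phosphodiesterase Pde3b, which fat also expresses, was 2882 (E13.5), 1565 (P0), 746 (8 weeks), 3216 (2-week transplant) and 6639 (4-week transplant). Mrgprd, a receptor for another shortened angiotensin, was not well above background on any array.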
